A study of Homo sapiens with 9 samples.

Results

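HaCaT keratinocytes, a spontaneously immortalized line from human skin, were treated for 24 h with EGF (10 nM) or with bleogen pB1 (1 µM), and their transcriptomes were compared directly. The comparison was drawn from the titles of the libraries and holds 6 of the 9 libraries of the series, 3 EGF-treated and 3 bleogen pB1-treated. The other 3 are untreated cells, whose levels are given as the background. All cells were wild type and were kept in serum-free medium, alone or with the agent added after the cells had reached confluence. HaCaT is a single line, so the libraries hold no difference between donors. Nothing in the labels says that the replicates were separate cultures, and the p values therefore measure the spread between these libraries, which may be technical. The doses of the agents differ and no common dose was sequenced, so each difference below is one between these treatments as given, not between the agents at an equal concentration.

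EGF is the founding ligand of the EGF receptor (EGFR), a receptor tyrosine kinase that pairs with itself or with other ERBB receptors on binding and passes the signal to the RAS-ERK cascade. ERK activity turns on genes for further EGFR ligands, for transcription factors of the AP-1 and ETS families, and for phosphatases that shut the cascade off again. In the epidermis EGFR signaling is known for driving proliferation and migration during wound closure and for holding back terminal differentiation. Bleogen pB1 is a cystine-knot peptide of the cactus *Pereskia bleo* described as an EGFR agonist with no sequence likeness to EGF, and the peptide used in the study was made by chemical synthesis.

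The 6 libraries held between 20390645 and 21320994 expected counts, which are estimates of the reads of each gene, and 3 counts correspond to between 0.141 and 0.147 CPM (counts scaled to library size), a floor of counting error alone. Levels are given in FPKM, which is scaled for gene length and depth, in the order of replicates 1, 2 and 3, and differences as the log2 ratio of EGF to bleogen pB1 (log2FC), fitted on the counts, with its standard error (SE). Whether libraries overlap was read from CPM. Of the 5 keratinocyte markers, KRT5, KRT14, TP63, CDH1 and DSP, the lowest level in any of the 6 libraries was 54.2 FPKM, that of CDH1 under EGF. Their summed level was 3411 to 3582 FPKM with EGF and 4562 to 5322 with bleogen pB1. Summed levels of melanocyte, fibroblast, leukocyte and endothelial markers reached at most 0.66, 0.34, 0.70 and 0.09 FPKM with EGF and 0.82, 1.85, 0.30 and 0.30 with bleogen pB1, and the fibroblast gene COL1A2 was at 0 in all 6 libraries. The fibroblast genes COL1A1, COL3A1 and DCN, none above 0.97 FPKM in these libraries, were themselves lower with EGF. The part of such cells in the differences below was not tested. In whole-culture RNA, fewer cells that express a gene and less RNA per cell cannot be told apart.

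The treatments left different transcriptomes. Of 12394 genes tested, 3564 (28.8%) were differentially expressed genes (DEGs, or genes called: |log2FC| of 0.5 or more and edgeR adjusted p up to 0.05), of which 1339 (10.8% of the genes tested) were higher and 2225 (18%) lower with EGF than with bleogen pB1. The lower DEGs also held most of the large differences: 1022 DEGs were at least 2-fold lower with EGF and 436 at least 2-fold higher, and among the 142 DEGs with at least 8-fold these numbers were 100 and 42. All genes tested had a median log2FC of −0.01. The 3 EGF-treated and the 3 bleogen pB1-treated libraries did not overlap in 3473 of the DEGs and in 7735 (62.4%) of all genes tested. Of the 8830 genes that were not DEGs, 5647 had a 95% interval of the log2FC that lay within −0.5 to 0.5, and 3183 had an interval that reached past these limits, so that a difference of that size could be neither shown nor set aside for them.

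The bleogen pB1-treated libraries were unequally far from the EGF-treated ones. The median absolute log2 difference across genes between an EGF-treated and a bleogen pB1-treated library was 0.367 to 0.4 for bleogen pB1 replicate 1, 0.25 to 0.3 for replicate 2 and 0.307 to 0.35 for replicate 3. Replicate 1 was in turn nearest to the untreated libraries (0.105 to 0.115), replicate 3 next (0.129 to 0.15) and replicate 2 farthest (0.185 to 0.211). EGF-treated libraries differed among themselves by 0.11 to 0.182 and bleogen pB1-treated ones by 0.105 to 0.171. This spread touched the DEG count: 3106 genes were called without bleogen pB1 replicate 1 and 4041 without replicate 2.

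**Figure D1:**
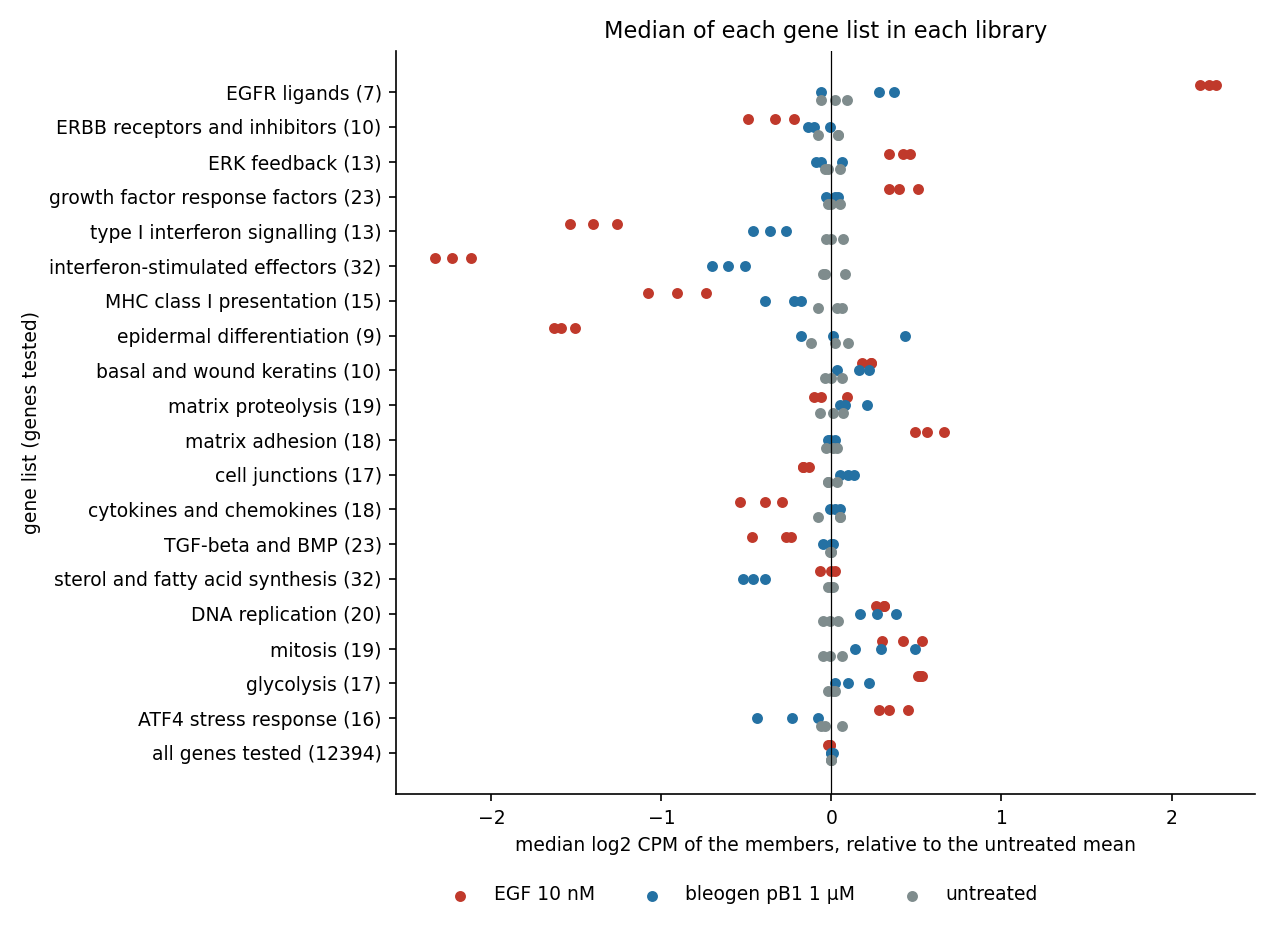
Median log2 CPM of the tested members of each gene list in each of the 9 libraries, relative to the mean of the untreated libraries (x axis), with the number of genes tested in brackets. The EGF-treated libraries stand apart from the bleogen pB1-treated ones in the EGFR ligands (2.17 to 2.26 against −0.06 to 0.37) and the interferon-stimulated effectors (−2.33 to −2.12 against −0.70 to −0.51), whereas in mitosis genes they overlap (0.30 to 0.53 against 0.14 to 0.49).

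Genes for ligands of EGFR and its relatives were among the most different. Of the 8 ligand genes listed, 7 for ligands of EGFR and NRG1, 7 could be tested, and 6 were higher and 1 was lower with EGF (medians of log2FC 1.98 over the list and −0.01 over all genes). DEGs higher and lower with EGF than with bleogen pB1 made up 10.8% and 18% of all genes tested. HBEGF, which encodes a heparin-binding ligand (NCBI gene 1839, chromosome 5 from 140332843 to 140346603 of GRCh38), stood at 42.05, 45.1 and 42.8 FPKM with EGF and 1.54, 3.19 and 2.25 with bleogen pB1, a log2FC of 4.30 ± 0.18 SE (edgeR adjusted p = 1.7e-09), a 19.7-fold difference. Every EGF-treated library lay above every bleogen pB1-treated one, and the untreated cells had 1.54 ± 0.392 (SD, n = 3) FPKM. AREG (amphiregulin) stood at 66.6, 67.6 and 66.9 FPKM with EGF and 3.93, 5.78 and 4.56 with bleogen pB1, a log2FC of 3.91 ± 0.11 SE (edgeR adjusted p = 1.1e-10). EREG (epiregulin) had 8.41, 9.45 and 8.94 FPKM with EGF and 0.6, 1.79 and 1.23 with bleogen pB1 (log2FC 2.96 ± 0.23 SE, edgeR adjusted p = 4.2e-07), and TGFA (transforming growth factor alpha) 34.2, 33.3 and 35.5 FPKM with EGF and 7.85, 10.04 and 9.71 with bleogen pB1 (log2FC 1.98 ± 0.09 SE, edgeR adjusted p = 3.1e-09). In these 4 genes the groups did not overlap, as in 62.4% of all genes tested. Among their bleogen pB1-treated libraries replicate 1 was lowest and replicate 2 highest. NRG1, a ligand of ERBB3 and ERBB4, and EPGN (epigen) were higher with EGF by 0.73 and 0.98 on the log2 scale. BTC (betacellulin) went the other way, at 0.2, 0.32 and 0.25 FPKM with EGF and 0.8, 0.69 and 0.68 with bleogen pB1, a log2FC of −1.48 ± 0.28 SE (edgeR adjusted p = 0.00066), with no overlap between the groups. EGF itself did not pass the count filter, at no more than 0.04 FPKM in any of the 6 libraries. Against untreated cells, the 7 tested ligand genes had a median log2FC of 2.23 under EGF, with 6 upregulated and 1 downregulated DEG, and of 0.25 under bleogen pB1, with no DEG. Over all genes tested, 15.1% were upregulated and 21.8% downregulated DEGs of EGF against untreated cells, and 0.218% and 1.26% were those of bleogen pB1. The exact permutation test of 3 libraries against 3 cannot give a two-sided p under 0.1. It gave 0.1 for HBEGF, STAT2, KRT1 and OAS1 and 0.6 for MKI67. Groups that do not overlap always give 0.1, so the test adds nothing to their separation.

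**Figure D2:**
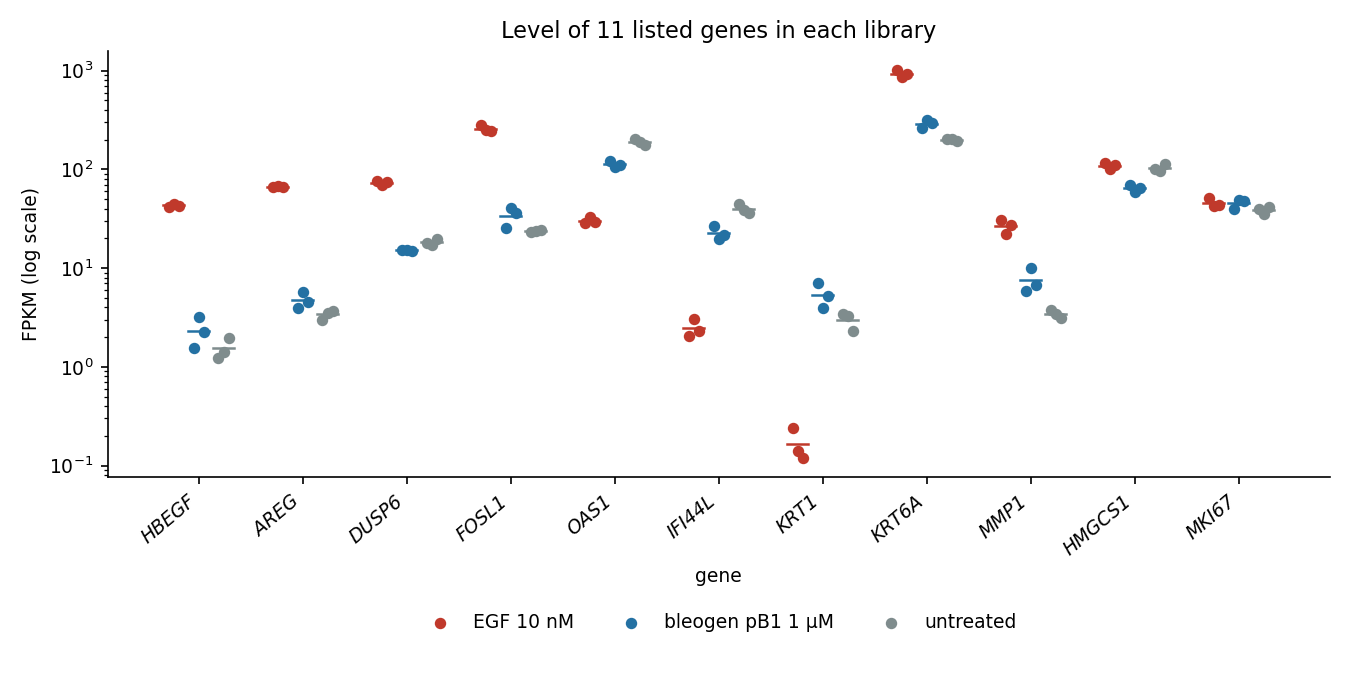
Level in FPKM (log scale) of 11 genes in each of the 9 libraries, with the mean of each group as a line. The EGF-treated libraries lie apart from the bleogen pB1-treated ones in 10 of the genes, above them for HBEGF, AREG, DUSP6, FOSL1, KRT6A, MMP1 and HMGCS1 and below them for OAS1, IFI44L and KRT1, and overlap with them for MKI67.

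Of the 4 receptor genes, 2 were lower with EGF and none was higher, beside 18% and 10.8% of all genes tested. So few genes give no result about the receptors as a group. ERBB2, the partner receptor without a ligand of its own, had 25.3, 21.1 and 22.2 FPKM with EGF and 57.1, 41.8 and 51.4 with bleogen pB1, a log2FC of −1.06 ± 0.10 SE (edgeR adjusted p = 2.4e-06), and ERBB3 7.15, 8.95 and 8.07 FPKM with EGF and 15.5, 12.3 and 15.03 with bleogen pB1 (log2FC −0.81 ± 0.09 SE, edgeR adjusted p = 1.2e-05). In both, the groups did not overlap, as in 62.4% of all genes tested. EGFR stood at 66.5, 51.99 and 56.8 FPKM with EGF and 85.2, 67.5 and 82.9 with bleogen pB1, and its log2FC was short of the limit (log2FC −0.36 ± 0.10 SE, edgeR adjusted p = 0.0078). The inhibitors of the receptors did not move as one: ERRFI1, an inducible inhibitor of the EGFR kinase, was higher with EGF (17.2, 16.3 and 16.2 FPKM with EGF and 9.9, 10.5 and 9.42 with bleogen pB1, log2FC 0.82 ± 0.07 SE, edgeR adjusted p = 9.2e-07), CBL, a ubiquitin ligase that sends active EGFR to degradation, was higher as well (log2FC 0.61 ± 0.07 SE, edgeR adjusted p = 6.7e-06), and its relative CBLB was lower (7.03, 8.48 and 7.24 FPKM with EGF and 16.99, 15.6 and 16.6 with bleogen pB1, log2FC −1.05 ± 0.07 SE, edgeR adjusted p = 1.6e-07). Of the 10 tested genes of this list, 2 were higher, 3 lower and 5 not called, among them LRIG1, LRIG2 and LRIG3, which encode membrane proteins that restrain ERBB receptors.

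Of the 13 tested feedback genes of the ERK cascade, 5 (38.5%) were higher with EGF and none lower. Over all genes tested, 28.8% were called and 10.8% were higher. By role, 4 of the 7 phosphatase genes and 1 of the 6 adaptor inhibitor genes were called. DUSP6, a cytoplasmic phosphatase of ERK, stood at 77.1, 68.8 and 74.01 FPKM with EGF and 15.3, 15.2 and 15.04 with bleogen pB1, a log2FC of 2.35 ± 0.07 SE (edgeR adjusted p = 1.1e-10). The groups were far apart, and the bleogen pB1-treated libraries lay below the untreated mean of 18.2 FPKM. The nuclear phosphatase genes DUSP4 (log2FC 1.93 ± 0.09 SE, edgeR adjusted p = 4.6e-09) and DUSP5 (log2FC 1.78 ± 0.11 SE, edgeR adjusted p = 5.3e-08), the cytoplasmic DUSP7 (log2FC 1.27 ± 0.11 SE, edgeR adjusted p = 9.8e-07) and SPRY4, a Sprouty inhibitor of the cascade (log2FC 2.10 ± 0.15 SE, edgeR adjusted p = 1.5e-07), made up the rest. SPRY1, SPRY2 and SPRED2 had a log2FC of 0.35, 0.28 and 0.30 and were not called, and DUSP1, the phosphatase that responds within minutes of a stimulus, had overlapping groups (1.74, 1.85 and 2.08 FPKM with EGF and 1.68, 1.55 and 2.05 with bleogen pB1). None of these 13 genes was a DEG of bleogen pB1 against untreated cells, whereas 6 were upregulated DEGs of EGF.

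Transcription factors of the growth factor response, listed together with the early-response gene IER3, split by member. Of the 23 genes tested, 9, IER3 among them, were higher and 5 lower with EGF (60.9% called, beside 28.8% of all genes tested). The groups did not overlap in 20 of the 23 and in 62.4% of all genes tested. FOSL1, the AP-1 subunit Fra-1, had 282, 251 and 244 FPKM with EGF and 25.4, 40.9 and 36.05 with bleogen pB1, a log2FC of 3.01 ± 0.13 SE (edgeR adjusted p = 2.7e-09), with no overlap between the groups. JUN was higher (log2FC 0.94 ± 0.09 SE, edgeR adjusted p = 3.5e-06), while JUND (18.9, 24.3 and 21.6 FPKM with EGF and 61.8, 36.8 and 49.8 with bleogen pB1, log2FC −1.11 ± 0.15 SE, edgeR adjusted p = 5.6e-05), FOSL2 (log2FC −0.77 ± 0.09 SE, edgeR adjusted p = 1.2e-05) and ATF3 (2.99, 4.87 and 4.42 FPKM with EGF and 11.9, 6.82 and 9.02 with bleogen pB1, log2FC −1.08 ± 0.20 SE, edgeR adjusted p = 0.0005) were lower with EGF. In JUND and ATF3, bleogen pB1 replicate 1 was highest and replicate 2 lowest. FOS and FOSB were not called (log2FC −0.32 ± 0.19 SE, edgeR adjusted p = 0.17 and log2FC 0.10 ± 0.13 SE, edgeR adjusted p = 0.54). The ETS factors ETV4 (46.3, 47.2 and 45.8 FPKM with EGF and 14.3, 15.99 and 14.4 with bleogen pB1, log2FC 1.71 ± 0.07 SE, edgeR adjusted p = 1.5e-09), ETV5 (log2FC 1.51 ± 0.09 SE, edgeR adjusted p = 5.3e-08), ETS1 (log2FC 1.10 ± 0.10 SE, edgeR adjusted p = 1.5e-06) and ELK3 (log2FC 0.69 ± 0.07 SE, edgeR adjusted p = 5e-06) were higher with EGF, and no library of these 4 genes overlapped with the other group. EGR1 was not called (17.5, 15.7 and 14.95 FPKM with EGF and 20.2, 17.3 and 19.8 with bleogen pB1, log2FC −0.17 ± 0.08 SE, edgeR adjusted p = 0.083), and EGR2 and EGR3, at levels under 1 FPKM, were lower by 1.84 and 1.39. IER3, an early-response gene that protects cells from apoptosis, reached 346, 366 and 350.3 FPKM with EGF and 32.8, 52.5 and 46.7 with bleogen pB1, a log2FC of 3.11 ± 0.12 SE (edgeR adjusted p = 1.5e-09). MYC had 37.9, 28.8 and 32.6 FPKM with EGF and 33.6, 31.3 and 32.5 with bleogen pB1, overlapping groups and a 95% interval of the log2FC of −0.08 to 0.29.

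Effector genes of the interferon response were lower with EGF almost throughout, whereas the signaling and MHC class I lists also held genes that were not called. Type I interferon acts through the kinases JAK1 and TYK2 and a complex that contains STAT2 and IRF9 and binds the interferon-stimulated response element (ISRE) in promoters of antiviral genes. Of the 32 effector genes listed, all of which were tested, 31 were DEGs lower with EGF and none was higher, with a median log2FC of −1.77. Lower DEGs made up 18% of all genes tested. The element was looked for as GAAA followed after any 2 bases by GAAA, or its reverse complement (TTTC, any 2 bases, TTTC), in the 250 bases before gene starts of RefSeq (GRCh38.p14). Promoters were available for 10169 of the 12394 genes tested, and genes without one were not searched. The element was found in 23 of the 37 promoters available for this list (62.2%) and in 3.02% of all 35116 promoters. The 37 promoters cover 26 of the 32 genes, and 19 genes had the element. In the promoters of the interferon signaling list it was in 1 of 12 (8.33%), which cover 9 of its 14 genes. In those of the MHC class I list it was in 7 of 16 (43.8%), which cover 12 of its 15 genes. It was also in 2.43% of the promoters of genes tested, in 3.64% of those of the lower DEGs and in 2.25% of those of the higher DEGs. A match of letters is a description and not a site shown to be bound. The following windows show how the element (in capitals) lies before the starts of 4 genes that were lower with EGF, in more than 1 copy, and before ISG20, the effector that was not called, in 1 copy.
IFIT1, chr10:89392482-89392554, plus strand: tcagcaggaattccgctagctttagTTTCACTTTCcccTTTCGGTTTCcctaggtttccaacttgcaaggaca
ISG15, chr1:1013359-1013424, plus strand: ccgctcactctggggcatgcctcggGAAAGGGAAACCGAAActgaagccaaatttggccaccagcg
BST2, chr19:17405720-17405785, minus strand: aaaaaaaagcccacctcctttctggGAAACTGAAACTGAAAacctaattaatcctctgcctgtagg
IFI6, chr1:27672251-27672373, minus strand: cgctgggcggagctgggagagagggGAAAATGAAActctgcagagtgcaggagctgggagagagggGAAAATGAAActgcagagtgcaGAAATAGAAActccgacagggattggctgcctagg
ISG20, chr15:88638922-88638981, plus strand: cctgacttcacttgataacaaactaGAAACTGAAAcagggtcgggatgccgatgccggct

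The windows of IFIT1, ISG15 and BST2 hold 2 copies each, which overlap in ISG15 and BST2, that of IFI6 holds 3 and that of ISG20 holds 1. These windows were picked for display and do not tie the number of copies to the difference. MX1 (log2FC −2.36), RSAD2 (−2.05) and EPSTI1 (−1.76) have 1 copy each, and IFIT5 (−0.50) has 2. IFIT1, which encodes an antiviral protein that binds viral RNA (NCBI gene 3434, chromosome 10 from 89392546 to 89406487 of GRCh38), stood at 13.7, 13.1 and 12.9 FPKM with EGF and 83.9, 72.1 and 77.7 with bleogen pB1, a log2FC of −2.48 ± 0.07 SE (edgeR adjusted p = 1.1e-10). BST2 (tetherin), which holds budding viruses at the cell surface, had 8.14, 9 and 9.38 FPKM with EGF and 79.4, 52.9 and 66.9 with bleogen pB1 (log2FC −2.81 ± 0.14 SE, edgeR adjusted p = 1.1e-08). ISG15, a ubiquitin-like modifier, had 135, 163 and 161 FPKM with EGF and 569, 419 and 484 with bleogen pB1 (log2FC −1.56 ± 0.11 SE, edgeR adjusted p = 1.9e-07), and IFI6 91.2, 146 and 125 FPKM with EGF and 667, 439.98 and 459 with bleogen pB1 (log2FC −2.0 ± 0.19 SE, edgeR adjusted p = 2e-06). In these 4 genes the EGF-treated libraries lay below all bleogen pB1-treated ones, as in 31.7% of all genes tested. The bleogen pB1-treated libraries in turn were all below the untreated means of 121, 106, 742 and 730.1 FPKM. The exception, ISG20, an exonuclease gene with the element before its start, had 5.29, 7.01 and 6.15 FPKM with EGF and 7.19, 5.65 and 6.01 with bleogen pB1 and overlapping groups (log2FC 0.04 ± 0.13 SE, edgeR adjusted p = 0.8).

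The greatest differences of the list were those of IFI44L (2.03, 3.08 and 2.33 FPKM with EGF and 26.6, 19.8 and 21.8 with bleogen pB1, log2FC −3.12 ± 0.15 SE, edgeR adjusted p = 6.1e-09), TRIM22 (3.48, 4.01 and 3.82 FPKM with EGF and 40.9, 26.99 and 34.9 with bleogen pB1, log2FC −3.10 ± 0.15 SE, edgeR adjusted p = 8.4e-09) and XAF1 (4.42, 5.37 and 4.37 FPKM with EGF and 44.3, 32.4 and 37.4 with bleogen pB1, log2FC −2.93 ± 0.14 SE, edgeR adjusted p = 5.2e-09). IFIT3 and IFIT2, relatives of IFIT1, and RSAD2 (viperin), which blocks viral replication, were lower by 2.04, 2.07 and 2.05. OAS1, an enzyme that senses double-stranded RNA, stood at 28.4, 33.1 and 29.3 FPKM with EGF and 122, 106 and 110.4 with bleogen pB1, a log2FC of −1.81 ± 0.08 SE (edgeR adjusted p = 4e-09). The smallest called difference was that of IFIT5 (log2FC −0.50 ± 0.08 SE, edgeR adjusted p = 0.00015). Against untreated cells the 32 effectors had a median log2FC of −2.20 under EGF, with 31 downregulated DEGs, and of −0.59 under bleogen pB1, with 21 downregulated DEGs. OASL and IFIT2 were at 153, 126 and 143 and 81.6, 73.8 and 79 FPKM under bleogen pB1 beside untreated means of 142 and 83.9, and at 38.2, 27.5 and 33.3 and 16.3, 17.9 and 18.6 under EGF. Replicate 2 of bleogen pB1 had the lowest median of the effectors, −0.70 relative to the untreated mean, and replicate 1 the highest, −0.51.

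In the signaling list 8 of 13 tested genes were lower and none higher with EGF, beside 18% and 10.8% of all genes tested. Of the ISRE-binding complex, STAT2 had 10.03, 14.2 and 12.4 FPKM with EGF and 40.2, 30.5 and 34.8 with bleogen pB1, a log2FC of −1.45 ± 0.12 SE (edgeR adjusted p = 7.7e-07), and IRF9 19.04, 25.7 and 20.3 FPKM with EGF and 54.9, 47.5 and 53.3 with bleogen pB1 (log2FC −1.17 ± 0.10 SE, edgeR adjusted p = 1e-06). In both the groups were apart, as in 62.4% of all genes tested. IRF7, the regulator of interferon genes, was lower by 1.33, and the RNA sensors DHX58, IFIH1 (MDA5), TLR3 and DDX58 (RIG-I) by 1.44, 1.13, 1.08 and 0.59. The 4 receptor and kinase genes were not called: IFNAR1, IFNAR2, JAK1 and TYK2 had a log2FC between −0.27 and 0.18, and the 95% interval of each lay within −0.5 to 0.5.

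MHC class I genes, which encode the peptide-presenting molecules on the cell surface and their peptide supply, were lower in 11 of 15 tested and higher in none. Of all genes tested, 18% were lower and 10.8% higher. HLA-F had 7.67, 12.3 and 10.5 FPKM with EGF and 37.3, 26 and 34.9 with bleogen pB1, a log2FC of −1.58 ± 0.15 SE (edgeR adjusted p = 2.7e-06). B2M, the light chain, had 902, 963 and 913 FPKM with EGF and 1840.1, 1559 and 1621 with bleogen pB1 (log2FC −0.75 ± 0.08 SE, edgeR adjusted p = 9.6e-06), and HLA-B, HLA-C and HLA-E were lower by 0.77, 0.61 and 0.69. Of the peptide supply, the immunoproteasome subunit PSMB9 (log2FC −0.98 ± 0.12 SE, edgeR adjusted p = 2.9e-05), the trimming enzyme ERAP2 (log2FC −0.98 ± 0.12 SE, edgeR adjusted p = 2.3e-05) and NLRC5, the transactivator of the class (log2FC −0.81 ± 0.10 SE, edgeR adjusted p = 2.2e-05), were lower. The transporter subunit TAP2 was not called (log2FC 0.32 ± 0.07 SE, edgeR adjusted p = 0.0011), and TAP1 (log2FC −0.27 ± 0.12 SE, edgeR adjusted p = 0.076) and TAPBP (log2FC −0.50 ± 0.08 SE, edgeR adjusted p = 0.00025) were not called either. Reads of HLA genes can be shared between near-identical members, so the values of single genes are uncertain. None of the 15 was a DEG of bleogen pB1 against untreated cells, and 14 were downregulated DEGs of EGF.

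**Figure D3:**
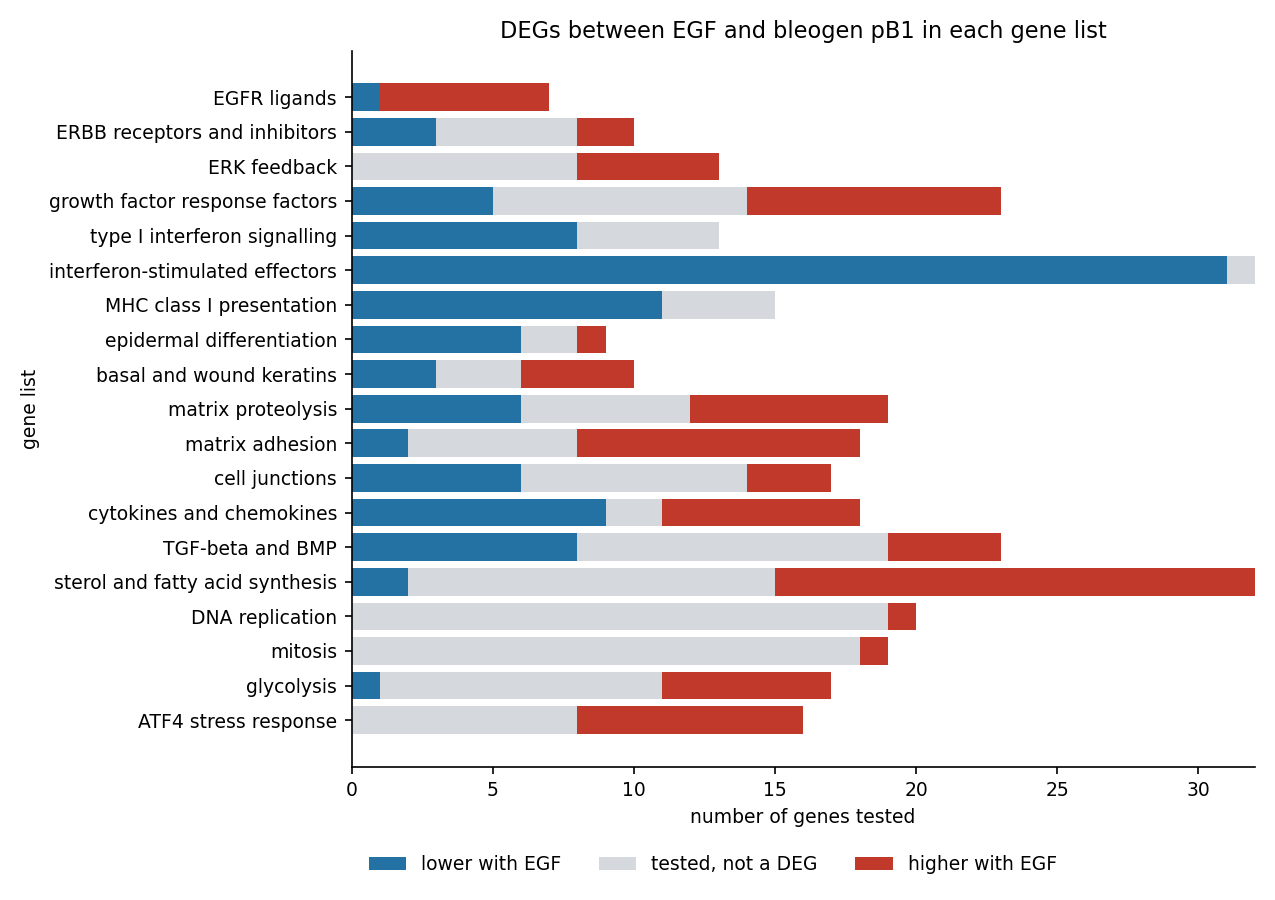
Number of tested genes in each gene list (x axis) that were DEGs lower with EGF, not DEGs, or higher DEGs. Interferon-stimulated effectors hold 31 lower DEGs of 32, sterol and fatty acid synthesis 17 higher and 2 lower of 32, and the DNA replication and mitosis lists 1 higher DEG each. Over all genes tested, 10.8% were higher and 18% lower DEGs.

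Epidermal differentiation genes separated the treatments, but only 9 of the 27 listed were expressed enough to be tested, and a gene that passes the filter through the group where it is high is bound to differ. Of the 9, 6 were lower and 1 was higher with EGF. KRT1, the keratin of the first layer above the basal cells (NCBI gene 3848, at 52674736 to 52680407 of chromosome 12 in GRCh38), had 0.24, 0.14 and 0.12 FPKM with EGF and 7.01, 3.98 and 5.19 with bleogen pB1, a log2FC of −4.91 ± 0.32 SE (edgeR adjusted p = 9.1e-08), a 30.0-fold difference. All bleogen pB1-treated libraries lay above the untreated mean of 3.00 FPKM and all EGF-treated ones below it. Its partner KRT10 was not called, at 14.3, 17.7 and 17.7 FPKM with EGF and 14.9, 14.04 and 11.2 with bleogen pB1 (log2FC 0.40 ± 0.12 SE, edgeR adjusted p = 0.013). KRT4 and KRT13, a keratin pair of mucosal epithelium, stood at 1.9, 1.55 and 1.75 FPKM with EGF and 32, 16.6 and 23.9 with bleogen pB1 and at 200.1, 320.2 and 254 FPKM with EGF and 1142, 821 and 995 with bleogen pB1, log2FC −3.71 ± 0.22 SE, edgeR adjusted p = 4.2e-08 for KRT4 and log2FC −1.84 ± 0.15 SE, edgeR adjusted p = 5.9e-07 for KRT13. The cornified envelope protein gene IVL (involucrin) was lower as well (0.52, 0.3 and 0.42 FPKM with EGF and 6.62, 2.8 and 5.03 with bleogen pB1, log2FC −3.44 ± 0.32 SE, edgeR adjusted p = 2.2e-06), as were TGM1, the transglutaminase that crosslinks the envelope (log2FC −2.08 ± 0.19 SE, edgeR adjusted p = 1.6e-06), and CNFN (log2FC −2.10 ± 0.41 SE, edgeR adjusted p = 0.00079). In KRT1, KRT4, KRT13 and IVL bleogen pB1 replicate 1 was highest and replicate 2 lowest, and none of the groups overlapped. SPRR1B, an envelope precursor induced by stress and wounding, was the member that was higher with EGF, at 21.7, 21.8 and 17.3 FPKM with EGF and 4.43, 4.18 and 3.6 with bleogen pB1, a log2FC of 2.44 ± 0.18 SE (edgeR adjusted p = 2.3e-07). Untreated cells had 1.64 ± 0.480 (SD, n = 3) FPKM, and SPRR1B was an upregulated DEG of both treatments against them.

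Keratins of basal, wounded and simple epithelium did not move together. KRT5, the basal type II keratin, had 1589, 1492 and 1560.2 FPKM with EGF and 3576, 2933 and 3349.5 with bleogen pB1, a log2FC of −1.0 ± 0.08 SE (edgeR adjusted p = 5.9e-07), with no overlap, whereas its partner KRT14 was not called (1788, 1746 and 1782 FPKM with EGF and 1475, 1384 and 1425 with bleogen pB1, log2FC 0.40 ± 0.07 SE, edgeR adjusted p = 0.00027). KRT15 was lower with EGF (log2FC −1.55 ± 0.14 SE, edgeR adjusted p = 1.4e-06). The wound keratin KRT6A was higher with EGF (1014, 863 and 929 FPKM with EGF and 261, 314 and 299 with bleogen pB1, log2FC 1.77 ± 0.08 SE, edgeR adjusted p = 4e-09) and so was KRT16 (12.2, 17.1 and 15.2 FPKM with EGF and 8.12, 7.08 and 8.09 with bleogen pB1, log2FC 1.03 ± 0.13 SE, edgeR adjusted p = 3.3e-05), and KRT17 was lower (909, 1009.9 and 981 FPKM with EGF and 2259, 1671 and 1988 with bleogen pB1, log2FC −0.94 ± 0.10 SE, edgeR adjusted p = 9.5e-06). KRT6A and KRT16 were upregulated DEGs of both treatments against untreated cells, with a log2FC of 2.29 and 1.95 under EGF and 0.52 and 0.93 under bleogen pB1. The simple epithelial pair KRT8 (2178, 2707 and 2435 FPKM with EGF and 716, 933 and 824 with bleogen pB1, log2FC 1.66 ± 0.10 SE, edgeR adjusted p = 3.6e-08) and KRT18 (log2FC 1.72 ± 0.07 SE, edgeR adjusted p = 1.5e-09) was higher with EGF, and KRT7 (log2FC −0.36 ± 0.11 SE, edgeR adjusted p = 0.012) and KRT19 (log2FC −0.24 ± 0.11 SE, edgeR adjusted p = 0.067) were not called. KRT6, KRT14, KRT16 and KRT17 have near-identical copies, and KRT8 and KRT18 many pseudogenes, between which reads can be divided.

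Genes of matrix proteolysis were called in both directions, 7 higher and 6 lower of 19 (68.4% called, beside 28.8% of all genes tested). By role, 2 of the 10 metalloproteinase genes were higher and 4 lower, 4 of the 6 genes for protease inhibitors were higher and 1 lower, and of the 3 genes of plasminogen activation 1 was higher and 1 lower. MMP1, the interstitial collagenase of migrating keratinocytes, had 30.8, 22.4 and 27.5 FPKM with EGF and 5.82, 10.1 and 6.82 with bleogen pB1, a log2FC of 1.91 ± 0.17 SE (edgeR adjusted p = 1.4e-06). The bleogen pB1-treated libraries lay between the EGF-treated ones and the untreated mean of 3.44 FPKM, and MMP1 was an upregulated DEG of both treatments against untreated cells. MMP9, a gelatinase, was higher with EGF as well (1.12, 2.75 and 1.73 FPKM with EGF and 0.53, 0.56 and 0.44 with bleogen pB1, log2FC 1.96 ± 0.33 SE, edgeR adjusted p = 0.00025). MMP10, MMP12 and MMP13 were lower: MMP10 (stromelysin 2) had 3.41, 3.22 and 3.38 FPKM with EGF and 11.7, 11.7 and 11.01 with bleogen pB1 (log2FC −1.69 ± 0.11 SE, edgeR adjusted p = 8.2e-08), MMP12 0.43, 0.35 and 0.21 FPKM with EGF and 5.28, 3.61 and 4.34 with bleogen pB1 (log2FC −3.66 ± 0.25 SE, edgeR adjusted p = 1.5e-07) and MMP13 6.92, 10.95 and 9.09 FPKM with EGF and 35.1, 40.6 and 37.9 with bleogen pB1 (log2FC −1.99 ± 0.12 SE, edgeR adjusted p = 6e-08). MMP2 and MMP14 had overlapping groups. Serpin genes were among the higher ones: SERPINE2, an inhibitor of thrombin and plasminogen activators, had 94.1, 94.4 and 93.3 FPKM with EGF and 5.19, 10.7 and 7.05 with bleogen pB1, a log2FC of 3.70 ± 0.19 SE (edgeR adjusted p = 1e-08), and SERPINB2 (plasminogen activator inhibitor 2) 81.4, 106 and 92.8 FPKM with EGF and 38.1, 31.05 and 34.96 with bleogen pB1 (log2FC 1.52 ± 0.10 SE, edgeR adjusted p = 1.4e-07). PLAUR, the urokinase receptor, was higher (37.1, 45.8 and 43.6 FPKM with EGF and 13.5, 14.95 and 12.9 with bleogen pB1, log2FC 1.71 ± 0.09 SE, edgeR adjusted p = 1.6e-08), PLAT, the tissue plasminogen activator, lower (log2FC −1.57 ± 0.11 SE, edgeR adjusted p = 1.5e-07), and PLAU, urokinase itself, had overlapping groups (70.7, 74.5 and 74.9 FPKM with EGF and 78.7, 71.4 and 74.3 with bleogen pB1, log2FC 0.06 ± 0.06 SE, edgeR adjusted p = 0.42).

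The letters bound by AP-1, TGANTCA, were found in 4 of the 11 promoters available for the matrix proteolysis list (36.4%), those of MMP7, MMP10, SERPINB2 and PLAUR. The 11 promoters cover only 9 of the 20 genes listed, so this is not a share of the list. The motif was in 6.57% of all promoters and 4.57% of those of the genes tested. Promoters of DEGs higher with EGF held the motif in 7.55% and of DEGs lower with EGF in 4.7%. It is shown for PLAUR and MMP10 (capitals), which carry the same motif and differ in opposite directions.
PLAUR, chr19:43670324-43670380, minus strand: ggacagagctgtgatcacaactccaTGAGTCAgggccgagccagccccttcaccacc
MMP10, chr11:102780664-102780720, minus strand: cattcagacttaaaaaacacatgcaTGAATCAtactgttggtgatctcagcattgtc

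Genes by which keratinocytes hold on to the basement membrane were mostly higher with EGF, 10 of 18 tested, with 2 lower and a median log2FC of 0.67. Called were 66.7% of these 18 and 28.8% of all genes tested. LAMA3, a chain of laminin-332, the adhesive laminin laid down by migrating keratinocytes, stood at 185, 212 and 201 FPKM with EGF and 47.4, 51.2 and 49.5 with bleogen pB1, a log2FC of 2.05 ± 0.06 SE (edgeR adjusted p = 1.6e-10). Bleogen pB1-treated cells were near the untreated mean of 50.7 FPKM. LAMB3, another chain, was higher by 0.67. The laminin receptor subunits ITGA3 (192, 174 and 178 FPKM with EGF and 99.7, 93.9 and 99.4 with bleogen pB1, log2FC 0.97 ± 0.06 SE, edgeR adjusted p = 5.3e-08) and ITGA6 (261, 220.4 and 239 FPKM with EGF and 132, 150.02 and 145 with bleogen pB1, log2FC 0.83 ± 0.07 SE, edgeR adjusted p = 1.1e-06), the fibronectin receptor subunit ITGA5 (log2FC 0.98 ± 0.07 SE, edgeR adjusted p = 2.7e-07) and the common subunit ITGB1 (log2FC 0.67 ± 0.05 SE, edgeR adjusted p = 5.9e-07) were higher, and ITGB4, which pairs with ITGA6 in hemidesmosomes, was not called (log2FC 0.42 ± 0.08 SE, edgeR adjusted p = 0.00047). PLEC (plectin), a hemidesmosomal linker, was higher (71.3, 98.7 and 85.2 FPKM with EGF and 24.3, 28.6 and 28.7 with bleogen pB1, log2FC 1.71 ± 0.10 SE, edgeR adjusted p = 4.6e-08) and the related DST lower (18.8, 12.4 and 15.7 FPKM with EGF and 41.9, 32.6 and 38.4 with bleogen pB1, log2FC −1.01 ± 0.11 SE, edgeR adjusted p = 7.2e-06), as was LAMA5 (log2FC −0.89 ± 0.07 SE, edgeR adjusted p = 4.9e-07). None of the 18 was a DEG of bleogen pB1 against untreated cells.

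Junction genes differed one by one, 3 higher and 6 lower of 17 (52.9% called, beside 28.8% of all genes tested), and 7 had an interval within −0.5 to 0.5. CLDN1, the main claudin of epidermal tight junctions, had 86.7, 88.7 and 82.2 FPKM with EGF and 379.96, 255 and 322 with bleogen pB1, a log2FC of −1.81 ± 0.12 SE (edgeR adjusted p = 7.4e-08). CLDN4 was higher with EGF (99.2, 128 and 117 FPKM with EGF and 56.5, 71.5 and 66.7 with bleogen pB1, log2FC 0.91 ± 0.10 SE, edgeR adjusted p = 5.4e-06) and CLDN7 just past the limit (log2FC 0.52 ± 0.08 SE, edgeR adjusted p = 0.00011). GJB2 (connexin 26), a gap junction gene that rises in wounded epidermis, was at 19.2, 12.03 and 14.9 FPKM with EGF and 2.12, 2.13 and 2.43 with bleogen pB1, a log2FC of 2.87 ± 0.16 SE (edgeR adjusted p = 3.1e-08), with every EGF-treated library above every bleogen pB1-treated one. Of the desmosome genes, DSC2 (log2FC −0.90 ± 0.05 SE, edgeR adjusted p = 4.9e-08), DSP (desmoplakin, log2FC −0.78 ± 0.09 SE, edgeR adjusted p = 1.9e-05), DSC3 (log2FC −0.71 ± 0.07 SE, edgeR adjusted p = 4.2e-06) and PKP1 (log2FC −0.53 ± 0.05 SE, edgeR adjusted p = 2.9e-06) were lower with EGF, while PKP2 and JUP had overlapping groups. DSC2, DSC3 and PKP1 lay above the untreated mean with bleogen pB1 and below it with EGF, by 0.21, 0.21 and 0.25 and by −0.69, −0.50 and −0.28 on the log2 scale, and none of the 3 was a DEG of bleogen pB1 against untreated cells.

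Cytokine and chemokine genes were called in 16 of 18 tested of 31 listed, 7 higher and 9 lower with EGF, although some were expressed at levels under 1 FPKM. Some passed the count filter only through the group where they were high, as CCL28 did, and had to differ, so the share called is no result about the list. IL1R2, the decoy receptor that binds interleukin 1 without signaling, had counts of 105, 120 and 136 with EGF, 1, 2 and 0 with bleogen pB1 and 0 in each untreated library. From the summed counts the level was 127-fold (exact 95% counting interval 43.0 to 617) higher with EGF. IL1A (13.4, 11.2 and 12.7 FPKM with EGF and 3.75, 6.2 and 5.21 with bleogen pB1, log2FC 1.38 ± 0.15 SE, edgeR adjusted p = 6.7e-06) and IL1B (27.5, 23.8 and 23.7 FPKM with EGF and 9.07, 11.6 and 10.04 with bleogen pB1, log2FC 1.38 ± 0.10 SE, edgeR adjusted p = 2.9e-07), the genes for interleukin 1 itself, were higher, and IL1RN, their antagonist (log2FC −0.75 ± 0.11 SE, edgeR adjusted p = 6.4e-05), and IL1R1, the signaling receptor (log2FC −1.45 ± 0.29 SE, edgeR adjusted p = 0.00083), lower with EGF. Groups did not overlap in any of these 5 genes, nor in 3473 of all 3564 DEGs. LIF, a cytokine of the interleukin 6 family, was higher (8.33, 14.9 and 12.1 FPKM with EGF and 2.86, 3.09 and 3.1 with bleogen pB1, log2FC 2.05 ± 0.17 SE, edgeR adjusted p = 7.5e-07) and IL6 lower (1.5, 0.82 and 0.86 FPKM with EGF and 2.22, 3.07 and 2.79 with bleogen pB1, log2FC −1.24 ± 0.28 SE, edgeR adjusted p = 0.0023). IL11 was called as higher by 0.62, although its groups overlapped. The neutrophil attractants CXCL1 and CXCL8 were higher with EGF by 1.35 and 2.21 at no more than 2.52 FPKM. CCL2, which attracts monocytes, had 0.35, 0.28 and 0.2 FPKM with EGF and 3.8, 4.42 and 5.02 with bleogen pB1, a log2FC of −3.85 ± 0.35 SE (edgeR adjusted p = 1.6e-06), and CCL5 8.59, 17.03 and 11.2 FPKM with EGF and 46.01, 32.3 and 37.8 with bleogen pB1 (log2FC −1.56 ± 0.21 SE, edgeR adjusted p = 4.3e-05). CXCL16 (log2FC −1.36 ± 0.13 SE, edgeR adjusted p = 3.3e-06) and the interferon-induced CXCL10 (log2FC −1.49 ± 0.40 SE, edgeR adjusted p = 0.0069) were lower too. CCL28 had no count in the EGF-treated libraries and 42, 36 and 34 in the bleogen pB1-treated ones, at least 11.8-fold higher than 3 counts per library. TNF had too few counts to be tested. The median log2FC of the list was −0.62, also with CCL28 at its bound.

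Among genes of TGF-β and BMP signaling, 4 were higher and 8 lower of 23 (52.2% called, beside 28.8% of all genes tested). The largest differences were in secreted inhibitors. NOG (noggin), which traps BMPs, had 4.28, 7.28 and 5.82 FPKM with EGF and 0.27, 0.29 and 0.16 with bleogen pB1, a log2FC of 4.67 ± 0.27 SE (edgeR adjusted p = 3.2e-08). FST (follistatin), which traps activin (NCBI gene 10468, at 53480626 to 53487134 of chromosome 5 in GRCh38), had 102, 90.4 and 104 FPKM with EGF and 11.2, 17.5 and 13.5 with bleogen pB1, a log2FC of 2.90 ± 0.13 SE (edgeR adjusted p = 4.1e-09). Both were far apart between the groups, and FST was an upregulated DEG of bleogen pB1 against untreated cells as well (0.68). The ligand gene BMP4 (log2FC 1.07 ± 0.11 SE, edgeR adjusted p = 4.6e-06) and the receptor gene TGFBR1 (log2FC 0.82 ± 0.08 SE, edgeR adjusted p = 4e-06) were higher, and TGFB2 (log2FC −1.06 ± 0.09 SE, edgeR adjusted p = 1e-06) and BMPR2 (log2FC −0.64 ± 0.08 SE, edgeR adjusted p = 2.9e-05) lower. The BMP targets ID1, ID2 and ID3 were lower with EGF by 0.55, 0.71 and 0.87, as was the intracellular inhibitor SMAD6 (0.31, 0.59 and 0.56 FPKM with EGF and 2.97, 1.86 and 2.46 with bleogen pB1, log2FC −2.23 ± 0.23 SE, edgeR adjusted p = 5.5e-06). TGFB1 did not reach the limit (43.2, 33.8 and 35.3 FPKM with EGF and 30.2, 26.3 and 29.9 with bleogen pB1, log2FC 0.46 ± 0.09 SE, edgeR adjusted p = 0.00085), and THBS1 and CTGF, targets of TGF-β, had overlapping groups.

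Sterol and fatty acid genes were the list in which bleogen pB1-treated cells, more than EGF-treated ones, stood apart from the untreated by the median, though not in its fatty acid enzymes. The transcription factor SREBP-2, encoded by SREBF2, raises the enzymes of cholesterol synthesis when sterols are short, and SREBP-1, encoded by SREBF1, raises those of fatty acid synthesis. Of 32 genes tested, 17 were higher and 2 lower with EGF, with a median log2FC of 0.52. Called were 59.4% of the list and 28.8% of all genes tested. Against untreated cells the median was −0.02 under EGF, with 2 upregulated and 5 downregulated DEGs, and −0.46 under bleogen pB1, with no upregulated and 14 downregulated DEGs. By role, the medians under EGF and bleogen pB1 were 0.08 and −0.44 for the 20 sterol enzyme genes. They were −0.23 and −0.70 for the 6 genes of regulation and uptake. For the 6 fatty acid enzyme genes the median under EGF was the lower, −0.52 beside −0.38, with 3 and 2 downregulated DEGs. The median of the list in the single libraries, relative to the untreated mean, was −0.07, 0.02 and 0.00 with EGF and −0.39, −0.52 and −0.46 with bleogen pB1. HMGCS1, an early enzyme of the mevalonate pathway, had 117, 101 and 111 FPKM with EGF and 68.97, 59.2 and 64.8 with bleogen pB1 beside 103 (log2FC 0.85 ± 0.08 SE, edgeR adjusted p = 2.5e-06), and each bleogen pB1-treated library lay below all libraries of both other groups.

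FDPS, which makes farnesyl diphosphate, was higher with EGF (631, 1002 and 841 FPKM with EGF and 376, 393 and 389.6 with bleogen pB1, untreated 513, log2FC 1.18 ± 0.12 SE, edgeR adjusted p = 4.9e-06), and MSMO1 (log2FC 0.99 ± 0.07 SE, edgeR adjusted p = 2.6e-07) and HSD17B7 (log2FC 0.99 ± 0.08 SE, edgeR adjusted p = 4.3e-07), enzymes after lanosterol, were higher than with bleogen pB1. FASN, the fatty acid synthase, had 298, 402 and 349 FPKM with EGF and 178, 153 and 178 with bleogen pB1 beside 425 in untreated cells, a log2FC of 1.12 ± 0.10 SE (edgeR adjusted p = 1.7e-06). Other members did not follow. SREBF1 was low with both treatments (109, 139.6 and 121 FPKM with EGF and 127, 106 and 121 with bleogen pB1, untreated 218), with a 95% interval of the direct log2FC of −0.04 to 0.33. SCD, a desaturase, was at 973, 1015 and 985 FPKM with EGF and 1655, 1158 and 1438 with bleogen pB1 beside 2584 and was not called (log2FC −0.44 ± 0.10 SE, edgeR adjusted p = 0.0029). FADS2 (log2FC −0.60 ± 0.10 SE, edgeR adjusted p = 0.0003) and TM7SF2 (log2FC −0.66 ± 0.14 SE, edgeR adjusted p = 0.0011) were lower with EGF than with bleogen pB1. SREBF2, MVK, PMVK and ACACA were not called and had intervals within −0.5 to 0.5. The letters of a sterol regulatory element, ATCA and CCCAC with 1 base of any kind between them, were in 1 of the 32 promoters available for the list, that of SREBF2, and in 0.131% of all promoters. The promoters available cover 24 of the 32 genes listed.

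**Figure D4:**
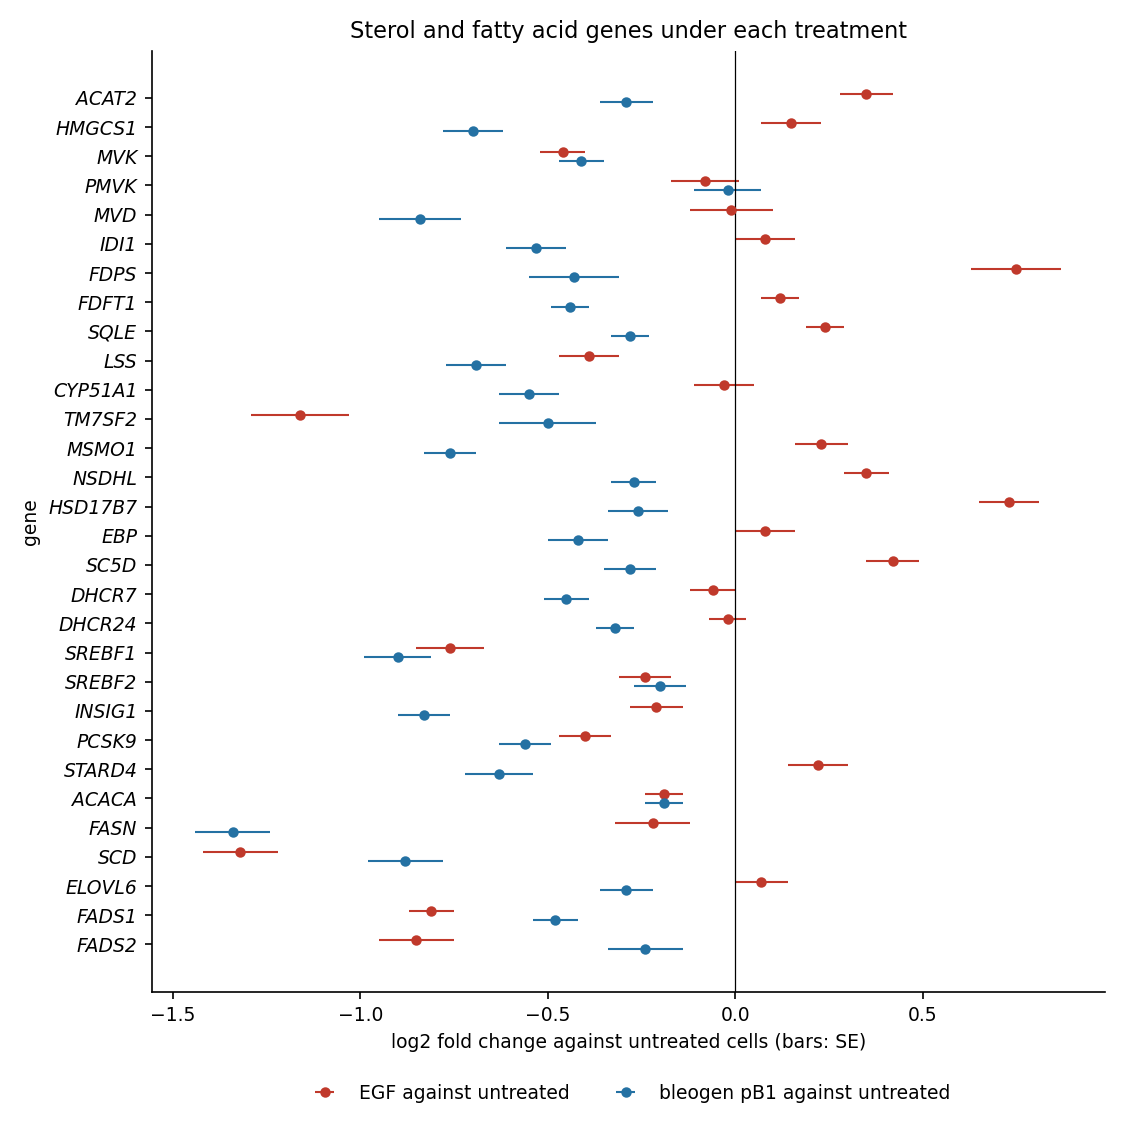
Log2FC against untreated cells (x axis, bars are SE) of 30 of the sterol and fatty acid genes under EGF and under bleogen pB1. The values under EGF scatter around 0 and those under bleogen pB1 lie below 0 for all 30 genes drawn under TMM scaling, FASN lowest at −1.34. Both sets use the same untreated libraries.

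Cell cycle genes hardly separated the treatments. Of the 20 genes of DNA replication 1 was higher (CCNE1), and of the 19 of mitosis 1 was higher (AURKA), with none lower and median log2FC of 0.05 and 0.08. Called were thus 5% and 5.26%, beside 28.8% of all genes tested. CCNE1, the cyclin of entry into S phase, had 3.09, 2.68 and 2.74 FPKM with EGF and 1.42, 2.41 and 1.78 with bleogen pB1, a log2FC of 0.67 ± 0.19 SE (edgeR adjusted p = 0.0081), and AURKA, a kinase of the spindle poles, 91.6, 82.5 and 85.95 FPKM with EGF and 51.3, 75.4 and 65.2 with bleogen pB1, a log2FC of 0.53 ± 0.11 SE (edgeR adjusted p = 0.0012). AURKA lost its call without EGF replicate 1 (0.49) and without bleogen pB1 replicate 1 (0.39). MKI67, the gene of the proliferation marker Ki-67, had 51.6, 42.5 and 43.6 FPKM with EGF and 39.5, 48.7 and 47.9 with bleogen pB1, overlapping groups and a 95% interval of −0.12 to 0.29. PCNA, the sliding clamp of DNA polymerases, had 244, 249 and 258 FPKM with EGF and 239, 286 and 256 with bleogen pB1 and an interval of −0.11 to 0.19. The interval lay within −0.5 to 0.5 for 14 of the 20 replication genes and 13 of the 19 mitosis genes, and for the others a difference of the size of the limit was not excluded. The helicase subunit genes MCM3 (log2FC −0.40 ± 0.06 SE, edgeR adjusted p = 0.00012) and MCM5 (log2FC −0.40 ± 0.05 SE, edgeR adjusted p = 5.1e-05) and, with the opposite sign, CDC20 (log2FC 0.46 ± 0.08 SE, edgeR adjusted p = 0.00038) and RRM2 (log2FC 0.48 ± 0.10 SE, edgeR adjusted p = 0.0015) were not called. Against untreated cells the median of the mitosis genes was 0.42 under EGF, with 8 upregulated DEGs, and 0.32 under bleogen pB1, with none, and that of the replication genes 0.27 under both, with 6 and none. The bleogen pB1-treated libraries spread widely in these lists, with mitosis medians of 0.14, 0.49 and 0.29 for replicates 1, 2 and 3 beside 0.53, 0.30 and 0.42 with EGF.

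Glycolysis genes were higher with EGF in 6 of 17 and lower in 1 (41.2% called, beside 28.8% of all genes tested), with a median of 0.39. SLC16A3, the exporter of lactate, had 37.6, 51.7 and 44.9 FPKM with EGF and 15.2, 15.7 and 16.8 with bleogen pB1, a log2FC of 1.58 ± 0.10 SE (edgeR adjusted p = 7.4e-08), and HK2, the inducible hexokinase, 11.5, 9.59 and 10.7 FPKM with EGF and 4.08, 5.97 and 5.18 with bleogen pB1 (log2FC 1.14 ± 0.12 SE, edgeR adjusted p = 4.2e-06). PKM (log2FC 0.63 ± 0.06 SE, edgeR adjusted p = 3.3e-06), PFKP (log2FC 0.63 ± 0.08 SE, edgeR adjusted p = 1.7e-05), PFKFB3 (log2FC 0.60 ± 0.08 SE, edgeR adjusted p = 2.9e-05) and the glucose transporter SLC2A1 (log2FC 0.57 ± 0.06 SE, edgeR adjusted p = 5.3e-06) were higher, and the liver-type phosphofructokinase PFKL lower (30.4, 29.6 and 31.03 FPKM with EGF and 45, 46.02 and 46.9 with bleogen pB1, log2FC −0.52 ± 0.05 SE, edgeR adjusted p = 3.2e-06). LDHA (log2FC 0.49 ± 0.09 SE, edgeR adjusted p = 0.00057) and ENO1 (log2FC 0.48 ± 0.07 SE, edgeR adjusted p = 9.7e-05) were just short of the limit. Genes of the ATF4 response, which supplies amino acids under stress, were higher with EGF in 8 of 16 and lower in none, with a median of 0.60. Of all genes tested, 10.8% were higher and 18% lower. CHAC1, a glutathione-degrading enzyme, stood at 12.8, 28.3 and 18.7 FPKM with EGF and 2.82, 7.23 and 4.42 with bleogen pB1, a log2FC of 2.14 ± 0.31 SE (edgeR adjusted p = 7.8e-05), with a wide spread in both groups. TRIB3, a pseudokinase induced by ATF4, had 73.4, 102 and 95.7 FPKM with EGF and 36.95, 41.9 and 40.9 with bleogen pB1 beside 60.6 in untreated cells (log2FC 1.24 ± 0.10 SE, edgeR adjusted p = 6.5e-07), above them in each EGF-treated library and below them in each bleogen pB1-treated one. ASNS, the asparagine synthetase (36.4, 36.2 and 36.6 FPKM with EGF and 14.4, 24.2 and 18.99 with bleogen pB1, log2FC 1.0 ± 0.15 SE, edgeR adjusted p = 0.00011), PSAT1 of serine synthesis (log2FC 0.85 ± 0.11 SE, edgeR adjusted p = 3.9e-05), the mitochondrial serine hydroxymethyltransferase SHMT2 (log2FC 0.74 ± 0.09 SE, edgeR adjusted p = 1.8e-05), the cystine transporter SLC7A11 (log2FC 0.99 ± 0.17 SE, edgeR adjusted p = 0.00032), CTH (log2FC 0.79 ± 0.11 SE, edgeR adjusted p = 7.3e-05) and DDIT3 (log2FC 0.94 ± 0.19 SE, edgeR adjusted p = 0.0011) were higher too. Relative to the untreated mean, the list median was 0.28, 0.45 and 0.34 with EGF and −0.44, −0.08 and −0.23 with bleogen pB1, where it was again replicate 1 that lay farthest from the EGF-treated libraries.

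Outside the lists, the genes with the greatest differences were read among DEGs that averaged 50 counts or more and had no overlap between groups. The separation of their libraries was thus required and is no result. COL13A1, a transmembrane collagen, had 6.64, 7.61 and 7.17 FPKM with EGF and 0.28, 0.26 and 0.31 with bleogen pB1, a log2FC of 4.70 ± 0.15 SE (edgeR adjusted p = 1.6e-10). NAV3, which binds microtubule ends, had 4.43, 4.95 and 4.56 FPKM with EGF and 0.24, 0.39 and 0.29 with bleogen pB1 (log2FC 3.99 ± 0.14 SE, edgeR adjusted p = 3e-10), and PAPPA, a protease that frees insulin-like growth factors, 0.66, 0.69 and 0.75 FPKM with EGF and 0.02, 0.06 and 0.07 with bleogen pB1 (log2FC 3.88 ± 0.27 SE, edgeR adjusted p = 1.8e-07). LOC389602 was higher with EGF as well (log2FC 4.39 ± 0.39 SE, edgeR adjusted p = 1.5e-06). All 4 had to be free of overlap to be taken. On the other side, OLFM4, a glycoprotein of stem-like epithelial cells, had 0.12, 0.37 and 0.23 FPKM with EGF and 21.3, 14.4 and 17.6 with bleogen pB1, a log2FC of −6.12 ± 0.25 SE (edgeR adjusted p = 1.6e-09). FGF1, a fibroblast growth factor (0.05, 0.05 and 0.08 FPKM with EGF and 2.4, 2.03 and 1.95 with bleogen pB1, log2FC −5.04 ± 0.24 SE, edgeR adjusted p = 6.3e-09), CYP4B1, a cytochrome P450 (0.14, 0.1 and 0.2 FPKM with EGF and 7.23, 2.86 and 5.22 with bleogen pB1, log2FC −5.04 ± 0.40 SE, edgeR adjusted p = 5.6e-07), and NAALADL2 (log2FC −4.66 ± 0.24 SE, edgeR adjusted p = 1.2e-08) were lower with EGF in all libraries. Counts of TTC28 were 2, 8 and 0 with EGF and 217, 178 and 208 with bleogen pB1, 57.3-fold (exact 95% counting interval 30.9 to 120.1) higher with bleogen pB1, and those of PSG5 4, 2 and 2 and 178, 27 and 111, 37.5-fold (exact 95% counting interval 18.8 to 87.7) higher, where bleogen pB1 replicate 2 was far below replicates 1 and 3. The fitted log2FC of PSG5, −5.17, takes in the spread between libraries and had a 95% interval of −6.81 to −3.54. PSG5 belongs to a family of near-identical genes, so that its counts are uncertain.

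Among the most abundant DEGs, HSPA8, a constitutive chaperone, had 2922, 2426 and 2659.6 FPKM with EGF and 1442, 2025 and 1671 with bleogen pB1, a log2FC of 0.73 ± 0.11 SE (edgeR adjusted p = 8.3e-05), with bleogen pB1 replicate 2 nearest to the EGF-treated libraries. The actin-binding proteins TMSB10 (log2FC 0.74 ± 0.08 SE, edgeR adjusted p = 8.9e-06) and PFN1 (1306, 1344 and 1281 FPKM with EGF and 848, 856 and 835 with bleogen pB1, log2FC 0.73 ± 0.06 SE, edgeR adjusted p = 6.5e-07) were higher with EGF, and FTH1, the heavy chain of ferritin, lower (1885, 1688 and 1633 FPKM with EGF and 3554, 3319 and 3515 with bleogen pB1, log2FC −0.90 ± 0.07 SE, edgeR adjusted p = 3.5e-07). MTRNR2L2 and MTRNR2L8, nuclear copies of a mitochondrial ribosomal RNA gene, were lower by 0.52 and 0.56. Their reads may stem from the mitochondrial gene, and the call of MTRNR2L2 was lost without EGF replicate 3 (−0.46) and without bleogen pB1 replicate 1 (−0.50).

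A few genes were taken for a small difference between the treatments. Among the genes that were DEGs of both treatments against untreated cells in the same direction and had a direct 95% interval within −0.5 to 0.5, the 6 taken by the smallest adjusted p of their weaker comparison with untreated cells were MYLIP, SREBF1, TUBA4A, ACSL1, MLXIP and ALDOC. MYLIP, a ubiquitin ligase, had 4.61, 4.09 and 3.86 FPKM with EGF and 5.35, 4.76 and 4.46 with bleogen pB1 beside 9.82 in untreated cells, with a direct interval of −0.35 to 0.09. ACSL1, which activates fatty acids, had 16.4, 17.3 and 16.7 FPKM with EGF and 22.95, 17.9 and 21.2 with bleogen pB1 beside 32.2 (interval −0.40 to −0.06), and MLXIP, a glucose-sensing transcription factor, 8.77, 7.94 and 7.87 FPKM with EGF and 11.7, 9.29 and 10.9 with bleogen pB1 beside 16.7 (interval −0.49 to −0.12). ALDOC, a glycolytic aldolase, had 15.5, 17.7 and 16.6 FPKM with EGF and 18.8, 16.4 and 17.6 with bleogen pB1 beside 25.5 (interval −0.17 to 0.18), and TUBA4A, an alpha-tubulin, was raised by both (136, 137 and 136 FPKM with EGF and 129, 166 and 149 with bleogen pB1 beside 93.9, interval −0.19 to 0.13). The intervals of ACSL1 and MLXIP did not include 0, so these differed between the treatments by less than the limit. The rule required DEGs in both and a narrow direct interval, so neither their side of the untreated cells nor their likeness is a result.

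Other genes were DEGs on opposite sides of the untreated cells. DIO2, which activates thyroid hormone, had counts of 1, 5 and 2 with EGF and 232, 225 and 231 with bleogen pB1, 81.7-fold (exact 95% counting interval 41.2 to 190.0) higher with bleogen pB1, and a log2FC against untreated cells of −5.64 and 0.65. RDH16, a retinol dehydrogenase, had 0.41, 0.3 and 0.29 FPKM with EGF and 3.06, 3.4 and 3.61 with bleogen pB1 beside 1.86 in untreated cells, a log2FC of −3.25 ± 0.18 SE (edgeR adjusted p = 2.7e-08). MMP10 and KRT1, given above, had the same order, lowest with EGF and highest with bleogen pB1. IL21R, the receptor of interleukin 21, and C6orf223 had the reverse order. Counts of IL21R were 23, 43 and 27 with EGF, 18, 16 and 15 in untreated cells and 1, 2 and 1 with bleogen pB1, 24.5-fold (exact 95% counting interval 9.25 to 91.7) higher with EGF than with bleogen pB1. C6orf223 had 0.51, 0.43 and 0.48 FPKM with EGF and 0.09, 0.04 and 0.07 with bleogen pB1 beside 0.203 (log2FC 2.93 ± 0.30 SE, edgeR adjusted p = 4.1e-06). In all 6 genes the libraries of the treatments did not overlap, as in 62.4% of all genes tested. The rule required calls on opposite sides and took the largest direct differences. Neither the sides nor the separation of these genes is therefore a result. In IL21R and C6orf223 the levels stayed under 1 FPKM.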

How the data were processed

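RNA of HaCaT keratinocytes was sequenced in 3 groups of 3 replicates, and samples were assigned to groups from their titles. Per the labels, RNA was taken with the RNeasy kit and polyadenylated RNA was sequenced on the DNBSEQ platform, whereas the paper names the PureLink kit and a BGISEQ instrument. Second strands were made with dUTP, which marks strand. Whether the counting used strand is not given in the sources used here, and genes that overlap or lie antisense to others have uncertain values. The submitters' processing notes name GRCh38.p12. The authors deposited expected counts, which estimate the reads of a gene without scaling for depth, and the program that made them is not given in the sources used here. They also deposited FPKM, scaled by gene length and depth. Genes missing from a file were counted as 0.

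Expected counts were rounded and fitted with edgeR 4.0.16 in R 4.3.3 (filterByExpr, TMM, estimateDisp, glmQLFit and glmQLFTest, 1 coefficient per group, all 9 libraries, 6 residual degrees of freedom, Benjamini-Hochberg adjustment over 12394 of 16199 genes). The SE is the size of the log2FC divided by the square root of F, and 95% intervals use the t distribution. Counting intervals are exact binomial (Clopper-Pearson) on counts summed over the libraries of a group, and leave out the spread between libraries. DEG thresholds were those of the paper, which used DESeq2. TMM factors lay between 0.9635 and 1.024. No files held identical values. Tables were computed with Python 3.11.15, numpy 2.4.6, pandas 2.3.3 and scipy 1.17.1.

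The 19 gene lists and 5 marker lists, the genes named and the tests were chosen with earlier results of these data known. Named genes are the 8 largest differences in each direction among DEGs with a mean of at least 50 counts and no overlap, the 5 most abundant DEGs in each direction, up to 4 called genes a direction from each list, a fixed set of genes of interest, and 6 genes called against untreated cells on the same side under both treatments (by adjusted p) and 6 on opposite sides (by size). Other list members named were chosen after their values were seen. Some genes of the lists are not reported here, and the counts and medians of their lists include them. List symbols were matched through RefSeq to NCBI gene numbers, coordinates are those of GENCODE release 44 (GRCh38) and promoters those of RefSeq (GRCh38.p14, every start listed for a gene).

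Alternatives were DESeq2 1.42.0, edgeR on the 6 libraries compared, RLE and upper-quartile factors, other count filters, limma 3.58.1 on log2(FPKM + 1) and log2(FPKM + 0.1), other fold-change limits, glmTreat, a block for the replicate number, and omission of each of the 6 libraries. The pairing check gave correlations of 0.0269 to 0.0562 between the deviations of same-numbered libraries, under the limit of 0.1, so the numbers were not taken to pair the samples. Tested on simulated data for this comparison, in which 200 of 12394 genes were altered 2-fold, edgeR found 172 to 181 of them with 5 to 6 false calls, DESeq2 171 to 175 with 3 to 7 and limma 177 to 182 with 4 to 8. How often the tools call falsely with as many DEGs as here (3564, of which 2225 lower with EGF) was not tested.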

Additional observations from a re-analysis of the deposited data

How the results depend on the processing

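EGF and bleogen pB1 were compared at 3 libraries a side, and the DEG count stayed within 1.5 times of 3564 with DESeq2 (3456), RLE factors (3561), upper-quartile factors (3671), the 6 libraries compared (3405), no count filter (3753), at least 10 counts in every library (3138) and limma on log2(FPKM + 0.1) (3609) or log2(FPKM + 1) (2598). It was 2026 with glmTreat against a log2FC of 0.5, 1458 with |log2FC| of at least 1 and 7214 with the adjusted p alone, where the share of higher DEGs was 49% in place of 37.6%. The share of higher DEGs was 28.8% with upper-quartile factors and 29.9% with |log2FC| of at least 1. Under limma the share was 29% on log2(FPKM + 0.1) and 31.8% on log2(FPKM + 1). In the other settings given so far, the adjusted p alone aside, it lay between 36.1% (glmTreat) and 38.9% (DESeq2 and RLE factors). With 1 library left out the DEG count ranged from 3106 to 4041, and the share from 38.2% to 40.4%. With the replicate number as a block it was 3550 with a share of 37.6%, of which 3511 were called without it, and no named gene changed its call. The mean correlation of same-numbered libraries was 0.0403 and of others −0.0198, so the numbers may not mark a pairing.

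Of 1963 alternative values of 132 named results, 1938 kept direction and call, 25 of 11 genes lost the call and none reversed. They include MTRNR2L2, BTC, CBL, CLDN7, CCNE1, AURKA, SLC2A1, PFKL, IL21R and C6orf223, and the cause was not tested. Of 285 list counts, 12 moved by over 1.5 times, in 4 lists. Epidermal differentiation had 12 called without a count filter and 11 without EGF replicate 1, the cytokines 10 with at least 10 counts in every library, the replication genes 0 to 2 and the mitosis genes 0 to 3.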
